A study of Mus musculus with 18 samples.

Results

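The 8 transcripts described here come from the mouse mitochondrial genome and were followed across all 6 groups of the study: the ribosomal RNAs mt-Rnr1 and mt-Rnr2, and the messenger RNAs mt-Nd1, mt-Nd2, mt-Nd4, mt-Nd5, mt-Cytb and mt-Co1. They were taken by name and are 8 of the 23 rows whose name starts with mt- among 15698 named features. The protein-coding genes mt-Nd3, mt-Nd4l, mt-Co2, mt-Co3, mt-Atp6 and mt-Atp8 had no row under these names, so shares given here leave them out. All 8 passed the filter on low values. CD4+ T cells from mice with the 5CC7 T cell receptor transgene were profiled untouched (naive) or after 4 days of culture with P13.9 cells, a fibroblast line used to present the pPCC peptide, which had been loaded at 0.01, 0.1, 1.0 or 10 µM. P13.9 cells alone formed the sixth group, and each group held 3 libraries. The study asked how the strength of the first T cell receptor signal bears on T helper cell fate. All T cell groups carried the same transgenic receptor, and activated T cells were harvested from a culture that also held the line, so P13.9 RNA could be part of every activated library. The labels leave unsaid whether a group's libraries stem from different mice or wells, so p-values here measure the spread between these libraries, which may be technical.

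Mitochondria keep a small genome of their own, which is copied into long transcripts from both strands and then cut, mostly at the tRNAs that lie between genes. The messenger RNAs code for core subunits of the respiratory chain, whose remaining subunits come from nuclear genes, and the ribosomal RNAs build the mitochondrial ribosome that translates them. Naive T cells are small and quiescent, and activated T cells are known to expand both their mitochondrial mass and their use of glucose. Mouse mitochondrial RNAs carry short A tails, and libraries primed on poly(A), as here, read one short stretch per transcript, so a level in this assay also depends on how well each tail is primed.

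On the mitochondrial chromosome of the mm10 assembly, as RefSeq places the genes, mt-Rnr1 (small-subunit ribosomal RNA) spans MT:70-1024 and mt-Rnr2 (large-subunit ribosomal RNA) MT:1094-2675. The complex I subunit genes follow at MT:2751-3707 for mt-Nd1, MT:3914-4951 for mt-Nd2, MT:10167-11544 for mt-Nd4 and MT:11742-13565 for mt-Nd5. The complex IV catalytic subunit mt-Co1 lies at MT:5328-6872 and the complex III subunit mt-Cytb at MT:14145-15288. These genes have no introns.

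The values were read counts divided by a size factor per library, and the reads behind them could be recovered. These reads are far fewer than the sequencing depth stated in the labels, for a reason not given in the sources used here, and the depths, read counts and intervals below rest on them. Naive libraries were the shallowest, with 27789 to 97757 named reads against 156941 to 733009 in all other libraries, and 1 read was worth 2.17 to 6.55 units in them. The 8 transcripts together had 4274 to 14459 reads in a naive library, and the lowest count of a single one in any library was 74. Between naive libraries the log2 values of all genes correlated at 0.601 to 0.765, against 0.90 to 0.972 within the other groups. Unnamed features took 12.4 to 15.6% of naive reads and 1.94 to 5.36% elsewhere. T cell markers summed to 1887 to 2241 units in naive and 1372 to 2250 in activated libraries, and to 24.3 to 46.8 in P13.9, where Cd3e and Cd5 were at 0.

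The 8 mitochondrial transcripts made up 15.4, 15.7 and 14.8% of the named signal in the naive libraries. At 10 µM the same share was 3.46, 2.70 and 3.32%. Every activated library lay far below every naive one, and the group means were 15.3% ± 0.471 for naive and 3.16% ± 0.407 at 10 µM (SD, n = 3), a 4.84-fold difference. The share was 3.72% ± 0.0887 at 0.01 µM, 3.32% ± 0.478 at 0.1 µM and 3.47% ± 0.385 at 1.0 µM. Each of these 4 comparisons gave p = 0.1 in the two-sided exact permutation test, the smallest value that 3 against 3 libraries allow. The 95% Wilson interval of a single library's share was at its widest in the first naive library, 14.96 to 15.8%, and covers counting error only. In bulk libraries, fewer cells of a type and less of an RNA per cell cannot be told apart.

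**Figure D1:**
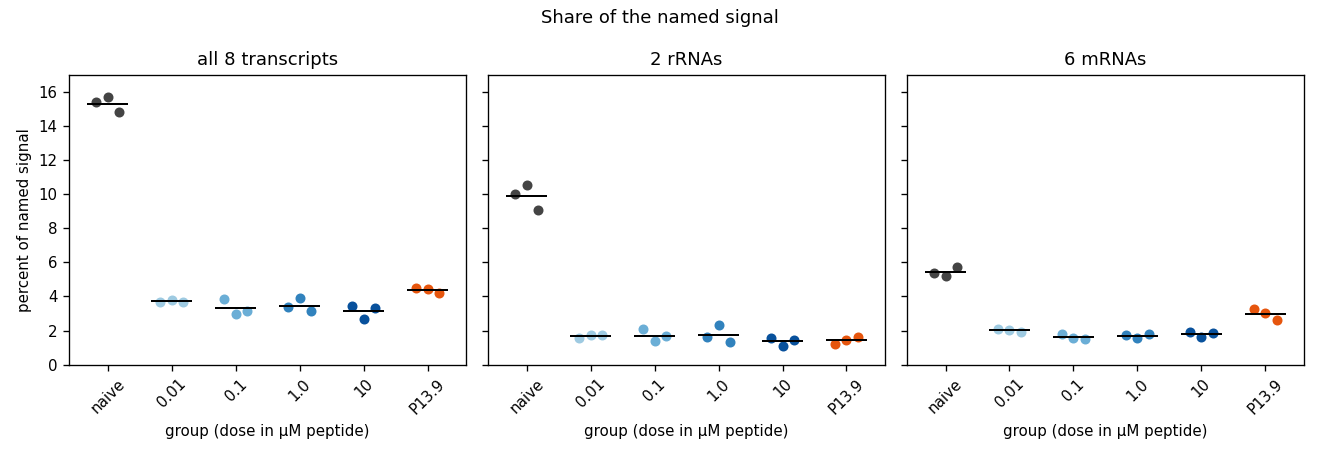
Percent of the named signal (vertical axis, from 0) taken by all 8 transcripts, by the 2 rRNAs and by the 6 mRNAs in each library. Points are libraries and short lines are group means of 3; the naive libraries sit near 15% and every other library below 5% for all 8 transcripts.

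All 8 transcripts fell from naive to activated cells at every dose, with no overlap between the libraries. At 10 µM the fold ran from 3.49 (mt-Nd2) to 15.2 (mt-Rnr2), and the median log2 difference of the 8 was -2.64, beside -0.07 for all 7264 genes tested. In that comparison 32.8% of all genes were called lower at an adjusted p below 0.05 (limma on log2(value + 1), Benjamini-Hochberg over all genes), and 33.7% were lower without overlap. The other doses gave 8 of 8 lower as well, with backgrounds of 31.4% at 1.0 µM, 31.5% at 0.1 µM and 27.7% at 0.01 µM, and medians of -2.60, -2.64 and -2.52. The 4 comparisons share the naive libraries. On simulated data with the depths of these libraries, 158 of 305 calls by this test against naive were false. Only 67, 67 and 66 of 7752 genes tested were changed there, by 1, 2 and 3 log2 units. That proportion depends on how many genes change, and many more were called in the real comparison, so it does not carry over. The false calls fell among genes of low level and none at the levels of the 8 transcripts. The shares of all genes called against naive, and calls of sparse genes, are therefore open to false calls. The simulated libraries had exact size factors, and all genes had the same spread beyond counting error. False calls from scaling could not arise there, so the simulation does not clear the 8 of them. The non-overlap backgrounds were 30.7% at 1.0 µM, 31.0% at 0.1 µM and 30.3% at 0.01 µM.

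The large-subunit rRNA mt-Rnr2 showed the biggest drop of the 8 at every dose. Its normalised values were 13684, 15734 and 13884 in naive libraries. They were 1329, 1482 and 1559 at 0.01 µM, and 1059, 782 and 1000.3 at 10 µM. The highest activated library, at 1917, lay far below the lowest naive one. The log2 difference was -3.31 ± 0.22 (SE) at 0.01 µM and -3.94 ± 0.22 at 10 µM (adjusted p 9.14e-09 and 1.47e-09, limma). The value at 0.1 µM was 1343 ± 281 and at 1.0 µM 1390 ± 482 (SD, n = 3), the latter spread over 1283, 1917 and 971.

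The small-subunit rRNA mt-Rnr1 had naive values of 4574, 6133 and 5325. The values were 625, 724 and 704 at 0.01 µM, and 959, 591 and 866 at 10 µM. Naive libraries were again well apart from the rest, but the order among doses was not that of mt-Rnr2. The mean at 0.01 µM (684) was below those at 0.1 µM (961, from 1181, 836 and 865) and 1.0 µM (952, from 864, 1205 and 787). Neither difference was called by limma (0.47 and 0.45, adjusted p 0.226 and 0.287). On the recovered reads both were called, by edgeR (adjusted p 0.0401 and 0.0320) and by DESeq2 (0.0311 and 0.0323). These calls stand without the share of all genes called by the same tool, so they show no change particular to mt-Rnr1. Against naive, the log2 difference was -2.96 ± 0.21 at 0.01 µM and -2.75 ± 0.21 at 10 µM (adjusted p 1.92e-08 and 4.03e-08, limma).

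The complex I subunits fell least at 10 µM. For mt-Nd1 the naive values were 3257, 3139 and 3738, and those at 10 µM were 956, 874 and 914. The activated libraries of all doses lay between 728 and 1020. The difference of 10 µM from naive was -1.88 ± 0.14 on the log2 scale (adjusted p 3.29e-08, limma), a 3.69-fold drop. For mt-Nd2 the naive values were 1094, 1491 and 1306 and the activated ones 294 to 435, a 3.49-fold drop at 10 µM (-1.81 ± 0.16, adjusted p 1.48e-07). Both genes code for subunits of the proton-pumping membrane arm of complex I.

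The remaining complex I members, mt-Nd4 and mt-Nd5, code for subunits of the same arm. For mt-Nd4 the naive values were 1566, 2061 and 2421 and the 10 µM values 415, 388 and 456, a 4.80-fold drop (-2.24 ± 0.16, adjusted p 1.78e-08, limma). At 0.01 µM, mt-Nd4 stood at 697, 685 and 602, a 3.05-fold drop from naive (-1.59 ± 0.16). For mt-Nd5 the naive values were 492, 640 and 624 and the activated ones 64.5 to 105, with a 6.04-fold drop at 10 µM (-2.58 ± 0.18, adjusted p 1.16e-08). The naive libraries held 75, 164 and 288 reads of mt-Nd5.

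Cytochrome b of complex III, mt-Cytb, fell 8.32-fold at 10 µM, the largest drop among the 6 mRNAs in that comparison. Its naive values were 2169, 2413 and 2843, and its 10 µM values 324, 265 and 304. The 0.01 µM libraries stood between these groups at 460, 449 and 443, without overlap with either. The log2 difference from naive was -3.05 ± 0.13 at 10 µM and -2.45 ± 0.13 at 0.01 µM (adjusted p 1.85e-10 and 1.27e-09, limma).

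The complex IV subunit mt-Co1, which carries the oxygen-reducing site of cytochrome c oxidase, had naive values of 1173, 1093 and 1172. The activated values ranged from 106 to 193. At 10 µM they were 191, 171 and 168, a 6.49-fold drop (-2.69 ± 0.18, adjusted p 1.17e-08, limma). At 0.01 µM they were 106, 118 and 160, an 8.97-fold drop (-3.18 ± 0.18, adjusted p 2.22e-09).

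**Figure D2:**
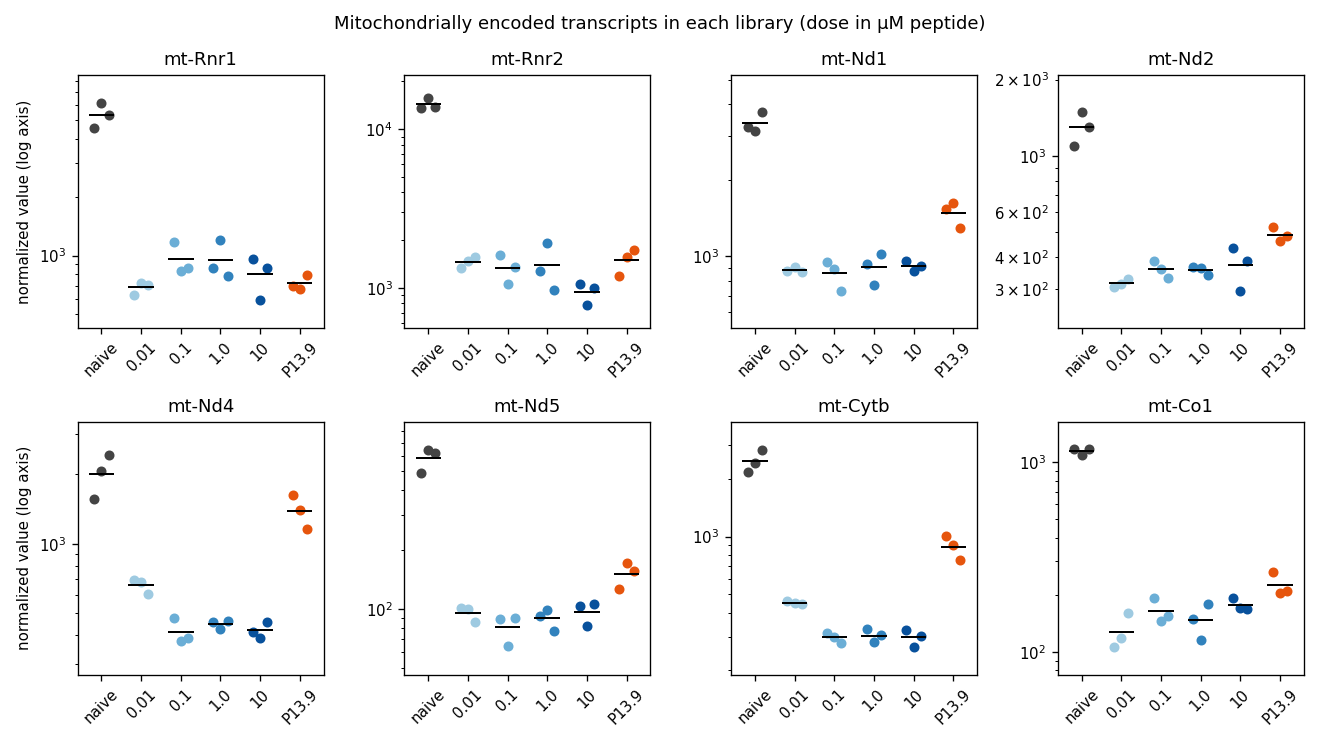
Normalised value (log axis, each panel with its own range) of the 8 transcripts in each of the 18 libraries, by group. Points are libraries and short lines are group means of 3; naive libraries lie above all activated libraries in every panel, and P13.9 libraries lie above the activated ones for mt-Nd4 and mt-Cytb.

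The size and, for some members, the call of these differences from naive depended on how libraries were scaled. With quantile normalisation, which gives every library the same distribution, mt-Nd1 differed by 0.01 (adjusted p 0.96) and mt-Rnr2 by -0.45 (adjusted p 0.12) between 10 µM and naive, and 6 of 8 were called lower. The same setting left 6 of 8 at 1.0 µM, 5 at 0.1 µM and 5 at 0.01 µM. Scaling to the named total, edgeR and DESeq2 each called 8 of 8 lower at each dose. Apart from total scaling at 10 µM, given next, these counts stand without the share of all genes called in the same setting. Of all genes at 10 µM, 1765 were called higher and 2380 lower with the deposited scaling, and 2674 higher and 1788 lower after scaling to the named total, which moved the median of all genes from -0.07 to 0.46. The share of the named signal, given above, uses no size factor.

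Markers of myeloid and erythroid cells, and nuclear-retained RNAs, moved with the same contrast. The 9 myeloid markers summed to 865 to 1089 units in naive and 31.8 to 84.7 in activated libraries, and 7 of 7 tested fell at 10 µM, beside 32.8% of all genes called lower, led by the neutrophil genes S100a8 (483 units in naive, 3.50 at 10 µM) and S100a9 (339 and 2.70). The 3 nuclear-retained RNAs listed, which include Malat1, summed to 557 to 1217 units in naive and 10.96 to 91.4 in activated libraries. Erythroid genes summed to 19.7 to 50.8 units in naive and at most 10.1 in activated libraries. Their part in the mitochondrial difference was not tested.

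The makeup of the mitochondrial signal changed along with its amount. The rRNAs held 64.5% ± 2.83 of the summed 8 transcripts in naive cells, 45.8% ± 2.12 at 0.01 µM, 51.2% ± 3.69 at 0.1 µM, 50.3% ± 9.10 at 1.0 µM, 43.2% ± 2.99 at 10 µM and 32.6% ± 5.66 in P13.9 (SD, n = 3). No activated or P13.9 library reached the naive range of 61.3 to 66.9% (two-sided exact permutation p = 0.1 in each comparison with naive). As parts of the named signal, rRNAs went from 9.87% ± 0.732 in naive to 1.37% ± 0.264 at 10 µM, and mRNAs from 5.43% ± 0.261 to 1.79% ± 0.143. Across the 4 doses the rRNA-to-mRNA ratio had no detectable trend: its slope was -0.05 log2 units per 10-fold dose (p = 0.589, 100000-resample permutation test over 12 libraries).

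Among the doses, differences were smaller. Between 10 and 0.01 µM, 2 of 8 transcripts were called, both lower at the higher dose: mt-Nd4 (-0.65 ± 0.16, adjusted p 0.0186) and mt-Cytb (-0.60 ± 0.13, adjusted p 0.0109, limma). The background was 8.15% of genes called in either direction and 6.25% called lower. The median of the 8 was 0.03, beside -0.03 for all genes. Neither transcript's 0.01 µM libraries overlapped those at 10 µM, and 28.1% of all genes were lower without overlap.

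Of the 6 others, mt-Rnr2 was lower at 10 µM in all libraries but missed the threshold (-0.63 ± 0.22, adjusted p 0.0956), and mt-Co1 was higher in all libraries and missed it too (0.48 ± 0.18, adjusted p 0.13). Without overlap, 21.8% of all genes were higher. The levels of mt-Nd5 (0.01 ± 0.18) and mt-Nd1 (0.05 ± 0.14) were the closest between the doses. The differences of mt-Rnr1 and mt-Nd2 were 0.21 ± 0.21 and 0.22 ± 0.16, with overlapping libraries. For mt-Nd2 the sign turned with quantile normalisation (-0.12), and for mt-Nd5 with quantile normalisation (-0.20) and with scaling to the named total (-0.01).

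The drop in mt-Nd4 and mt-Cytb lay in the first dose step. Between 0.1 and 0.01 µM both were called lower again (mt-Nd4 -0.68 ± 0.16, adjusted p 0.0255; mt-Cytb -0.60 ± 0.13, adjusted p 0.0202, limma), against 5.59% of all genes called and 3.41% called lower. The mt-Cytb values were 316, 299 and 277 at 0.1 µM, below each of the 460, 449 and 443 at 0.01 µM. The mt-Nd4 values were 476, 377 and 388 at 0.1 µM, below each of the 697, 685 and 602, and 22.9% of all genes were lower without overlap. Between 1.0 and 0.01 µM, mt-Cytb was called lower (-0.57 ± 0.13, adjusted p 0.0255) and mt-Nd4 missed the threshold (-0.56 ± 0.16, adjusted p 0.0621), with 4.3% of all genes called and 2.66% called lower. The comparisons with 0.01 µM share its 3 libraries. Between 0.1 and 0.01 µM, both calls were lost without any one of 0.01 µM libraries A, B and C and 0.1 µM libraries B and C (adjusted p 0.0614 to 0.118 for mt-Nd4 and 0.0645 to 0.0958 for mt-Cytb), and that of mt-Cytb at 1.0 µM without any one of 0.01 µM libraries A, B and C and 1.0 µM libraries B and C (0.0707 to 0.126).

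Above 0.1 µM no transcript was called. In 1.0 against 0.1 µM, 10 against 1.0 µM and 10 against 0.1 µM, limma, edgeR and DESeq2 each called 0 of 8, with 0.0%, 0.0826% and 0.0964% of all genes called by limma. At an unadjusted p below 0.05, limma had 0 of 8 in the first of these and 1 of 8 in each of the others, mt-Rnr2 both times (-0.51 ± 0.22 and -0.49 ± 0.22). The mt-Nd4 values were 455, 427 and 461 at 1.0 µM, within the range of the 0.1 and 10 µM libraries together. The mt-Cytb values of 328, 280 and 305 at 1.0 µM also overlapped those on either side.

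The slopes over the 4 doses were -0.18 ± 0.05 log2 units per 10-fold dose for mt-Nd4 (adjusted p 0.0394) and -0.18 ± 0.04 for mt-Cytb (adjusted p 0.0199), and 6.53% of all genes had a called slope, 5.13% downward. That of mt-Rnr2 was -0.19 ± 0.07 (adjusted p 0.137) and that of mt-Co1 0.13 ± 0.06 (adjusted p 0.24, limma). Single libraries decided several of these calls. In 10 against 0.01 µM, mt-Nd4 lost its call without 0.01 µM library A or B (adjusted p 0.0895 and 0.0933) or 10 µM library A or B (0.0744 and 0.0920), and mt-Cytb without 0.01 µM library A or B (0.0573 and 0.0587) or 10 µM library B (0.0711). The slope of mt-Nd4 kept its call only without 0.1 µM library B or 1.0 µM library B, with an adjusted p of 0.0541 to 0.155 when any other library was left out. That of mt-Cytb lost its call without any one of the 0.01 µM libraries or 10 µM library B or C (0.0568 to 0.103). The sample numbers in the labels fall in 2 runs. The first spans naive, P13.9 and the 0.01 and 1.0 µM doses, and the second spans the rest. The comparisons of doses within a run are therefore those of 1.0 with 0.01 µM and of 10 with 0.1 µM, given above.

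**Figure D3:**
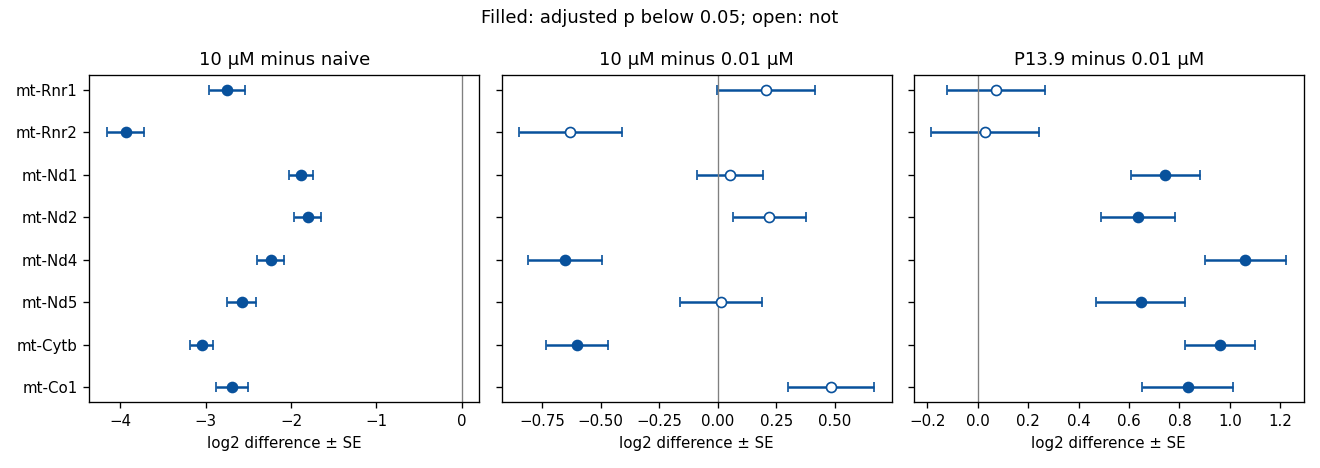
Log2 differences with their standard errors for the 8 transcripts in 10 µM against naive, 10 µM against 0.01 µM and P13.9 against 0.01 µM, each panel with its own horizontal range. Filled points had an adjusted p below 0.05: all 8 on the left, mt-Nd4 and mt-Cytb in the middle, and the 6 mRNAs on the right.

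The P13.9 cells had another makeup of the mitochondrial signal than T cells: mt-Nd4 was 20.3% of the summed 8 transcripts in them, 6.54% in naive and 10.5% at 10 µM. Against naive, all 8 were lower (59.0% of 8179 genes called, 29.1% lower), from 1.45-fold for mt-Nd4 (-0.53 ± 0.16, adjusted p 0.00988) to 9.61-fold for mt-Rnr2 (-3.28 ± 0.21, adjusted p 5.05e-10, limma). The mt-Nd4 values in P13.9 were 1628, 1395 and 1154 and overlapped the naive ones, while the other 7 transcripts did not overlap, as 26.9% of all genes did not in that direction. The mt-Nd4 call was lost without P13.9 library 3 (adjusted p 0.0645) or naive library 3 (0.0518), and with quantile normalisation mt-Nd4 was higher in P13.9 than in naive (0.74, adjusted p 0.00299). It was also not called by edgeR (-0.11, adjusted p 0.615), by DESeq2 (-0.11, adjusted p 0.559) or after scaling to the named total (-0.16, adjusted p 0.365). Over 13 settings it was called in 5, which include quantile normalisation, where mt-Nd4 was higher in P13.9.

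Against activated cells, P13.9 had more of most mRNAs. Compared with 0.01 µM, the 6 mRNAs were higher and neither rRNA was called (25.1% of all genes called, 14.3% higher). The differences were largest for mt-Nd4 (1.06 ± 0.16, adjusted p 8.81e-05) and mt-Cytb (0.96 ± 0.14, adjusted p 4.61e-05), and those of mt-Rnr1 and mt-Rnr2 were 0.07 ± 0.19 and 0.03 ± 0.21. Compared with 10 µM, mt-Nd4 was 3.31-fold and mt-Cytb 2.97-fold higher (1.72 ± 0.16 and 1.56 ± 0.14, adjusted p 1.37e-07 and 5.71e-08, limma). Also higher than at 10 µM were mt-Nd1, mt-Nd5, mt-Nd2 and mt-Rnr2 (0.69, 0.63, 0.42 and 0.66), in a comparison with 42.0% of all genes called and 26.4% higher. The P13.9 values of mt-Cytb were 1003, 899 and 752, more than every activated library.

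Counts of calls against P13.9 moved with scaling and with single libraries. The counts that follow stand without the share of all genes called in the same setting. With quantile normalisation only 2 of 8 were called against 0.01 µM, mt-Nd4 higher (0.75) and mt-Rnr1 lower (-0.69), and against 10 µM, mt-Nd4 (1.63), mt-Cytb (1.33) and mt-Nd5 (0.47) were higher and mt-Rnr1 was lower (-0.71). In P13.9 against 10 µM, leaving out 10 µM library B left 3 of 8 called. As a share of the named signal the 8 transcripts took 4.51, 4.46 and 4.23% in P13.9, above all 12 activated libraries (2.70 to 3.896%) and below all naive ones. The difference was 1.24 percentage points from 10 µM and 0.678 from 0.01 µM (two-sided exact permutation p = 0.1, the smallest possible, in both).

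Fibroblast transcripts were above the naive level at 0.01 µM. The 9 fibroblast markers in the table summed to 559 to 638 units in P13.9, 113 to 180 at 0.01 µM, 25.9 to 50.9 at 0.1 µM, 20.9 to 37.3 at 1.0 µM, 7.63 to 15.8 at 10 µM and 26.2 to 32.5 in naive, so the 10 µM libraries lay below the naive ones and those at 0.1 and 1.0 µM overlapped them. By the median of 5 of these genes, the level was 25.1, 31.3 and 46.6% of that in P13.9 in the 0.01 µM libraries. At 10 µM it was 1.15 to 2.51%. This relative level, called the P13.9 share below, is not a percent of a library's RNA. The named signal summed to 154647 to 156935 units in P13.9 and to 122760 to 128999 at 0.01 µM. The same measure gave 0, 4.22 and 4.68% in the naive libraries, which the labels give as T cells without P13.9, so the 10 µM values lie within its background. By 206 genes without a naive read, a set chosen after the values were seen, the P13.9 share was 22.8 to 28.0% at 0.01 µM and 3.02 to 3.85% at 10 µM. P13.9 RNA at these shares would hold 478 (5 genes) or 364 (206 genes) of the mean 661 units of mt-Nd4 at 0.01 µM. For mt-Cytb it would hold 304 or 231 of 451 units.

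Values with that part subtracted are given next; the cause of the differences was not tested. After subtraction, the mean mt-Nd4 level at 0.01 µM was 183 or 298 units, against 396 or 372 at 10 µM, and the mean mt-Cytb level 147 or 220 against 283 or 267. The 183 rests on single libraries: the 5-gene share took library C to -47.1 units, and the mean was 298 without C and 101 without A. These means keep that negative value, while the fits, shares and ratios with subtraction set values below 0 to 0. With the share from 206 genes subtracted and the libraries rescaled, the differences were -0.12 for mt-Nd4 (adjusted p 0.85) and -0.19 for mt-Cytb (adjusted p 0.58), and mt-Co1 was the 1 transcript called, higher at 10 µM. With the share from 5 genes subtracted, 5 of 8 were called, all higher at 10 µM, and 1 of 8 after rescaling. Against naive, 8 of 8 were called lower at 10 µM with the share from 206 genes. With the share from 5 genes, mt-Nd4 kept its direction (-2.33) but not its call (adjusted p 0.194, limma). That fit shares its estimate of the spread over all groups, which includes 0.01 µM library C set to 0 for mt-Nd4.

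The balance between both rRNAs shifted with dose. The ratio of mt-Rnr2 to mt-Rnr1, taken within each library, was 2.57 to 2.99 in naive, 2.05 to 2.22 at 0.01 µM, 1.27 to 1.56 at 0.1 µM, 1.23 to 1.59 at 1.0 µM and 1.104 to 1.32 at 10 µM. Naive and 0.01 µM libraries overlapped neither each other nor any higher dose, while 0.1, 1.0 and 10 µM overlapped. The slope over the 12 activated libraries was -0.25 log2 units per 10-fold dose (p = 0.00075, 100000-resample permutation test, adjusted p 0.00511 over 7 slopes). This ratio was picked after the values were seen. The ratio in P13.9 was 1.71 to 2.34, which overlaps that at 0.01 µM (-0.04 log2 units, exact permutation p = 0.9).

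With the P13.9 part taken out, the rRNA ratio was 2.17 ± 0.155 at 0.01 µM and 1.18 ± 0.107 at 10 µM by 5 genes. By 206 genes it was 2.15 ± 0.118 and 1.17 ± 0.108 (SD, n = 3). The slope was -0.26 with either part taken out (permutation p = 0.00135 and 0.00133). Subtraction could hardly move this ratio, since it was 2.08 ± 0.329 in P13.9 and 2.13 ± 0.0849 at 0.01 µM. The P13.9 part at 10 µM was small. The cause of the shift was not tested. Leaving out any single activated library gave slopes from -0.27 to -0.22, and the p stayed at or below 0.00314. Within the runs of sample numbers, the difference in this ratio was -0.57 log2 units for 1.0 against 0.01 µM (exact permutation p = 0.1) and -0.23 for 10 against 0.1 µM (exact permutation p = 0.2).

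Among the mRNAs, mt-Nd1 served as a within-library yardstick. The mt-Nd4 to mt-Nd1 ratio was 0.595 ± 0.0990 in naive, 0.750 ± 0.0514 at 0.01 µM, 0.459 ± 0.0350 at 10 µM and 0.937 ± 0.107 in P13.9 (SD, n = 3). The mt-Cytb to mt-Nd1 ratio was 0.732 ± 0.0571, 0.511 ± 0.0162, 0.325 ± 0.0189 and 0.596 ± 0.0507 in the same groups. Their slopes over dose were -0.21 and -0.20 log2 units per 10-fold dose (permutation p = 0.00365 and 0.00146, adjusted p 0.00852 and 0.00511 over 7 slopes). As mt-Nd1 varied little with dose and mt-Nd4 and mt-Cytb were already called over dose, these slopes restate those calls, and the ratios were picked after the values were seen. With the P13.9 part from 206 genes removed, the 0.01 µM ratios were 0.596 ± 0.115 and 0.443 ± 0.0374, and those at 10 µM 0.431 ± 0.0369 and 0.309 ± 0.0228. With the part from 5 genes removed, mt-Nd4 to mt-Nd1 was lower at 0.01 µM (0.419 ± 0.369) than at 10 µM (0.445 ± 0.0375). The first of these includes library C, where mt-Nd4 was set to 0. The mt-Cytb to mt-Nd1 ratio was then 0.347 ± 0.153 and 0.317 ± 0.0233. The mt-Nd2 to mt-Nd1 and mt-Co1 to mt-Nd1 ratios had slopes of 0.04 and 0.11 (permutation p = 0.385 and 0.115).

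**Figure D4:**
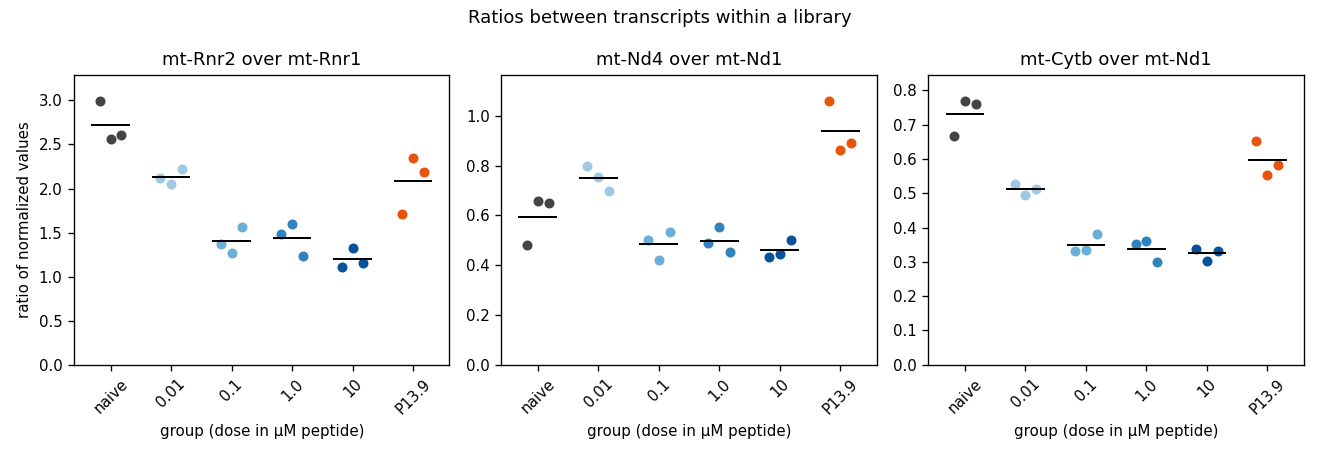
Ratios of normalised values within each library for mt-Rnr2 over mt-Rnr1, mt-Nd4 over mt-Nd1 and mt-Cytb over mt-Nd1 (vertical axes from 0). Points are libraries and short lines are group means of 3; the rRNA ratio runs from 2.57 to 2.99 in naive down to 1.104 to 1.32 at 10 µM.

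The other 15 mitochondrial rows were sparse: mt-Nd6, the complex I subunit gene on the opposite strand, and 14 tRNAs. The level of mt-Nd6 was 32.8, 46.8 and 34.6 units in naive, from 5, 12 and 16 reads, and 14.97, 8.91 and 22.0 at 10 µM. It fell without overlap (-1.33 ± 0.36, adjusted p 0.00524, limma) and did not pass the test between 10 and 0.01 µM (0.65 ± 0.36, adjusted p 0.316). RefSeq places mt-Nd6 at MT:13552-14070, so its end overlaps mt-Nd5, and whether strand was used in counting is not given in the sources used here. Of 7 tRNA rows kept, mt-Tq, mt-Tc, mt-Tt and mt-Tp fell at 10 µM against naive (-1.38, -1.26, -0.96 and -2.92, adjusted p 0.0115, 0.019, 0.00885 and 5.25e-05), on 16 to 40 naive reads each, beside 32.8% of all genes called lower. The differences of mt-Ti (-0.99), mt-Tm (-0.45) and mt-Tw (0.29) missed the threshold.

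Only mt-Tm, the methionine tRNA just before mt-Nd2, was called among these rows between 0.1 and 0.01 µM. Its values were 70.7, 77.6 and 31.9 at 0.1 µM against 18.6, 24.3 and 24.96 at 0.01 µM, without overlap (1.28 ± 0.35, adjusted p 0.047, limma), and 2.18% of all genes were called higher. At 10 µM they were 37.3, 29.5 and 36.2, above the 0.01 µM libraries and overlapping those at 0.1 µM (0.58 ± 0.35 from 0.01 µM, adjusted p 0.377). The 7 tRNA rows not kept, mt-Tf, mt-Tv, mt-Tl1, mt-Ta, mt-Ts2, mt-Tl2 and mt-Te, had 9 to 105 reads over all libraries. Nuclear copies of mitochondrial DNA could take or give reads. Of the 7 such gene models looked for, 2 had a row: Gm28438 averaged 2.57 to 3.82 units per group and Gm28661 at most 0.214. These low levels do not show how reads that match both a copy and the mitochondrial genome were counted. Whether the 8 transcripts lost reads in this way was not tested.

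Nuclear genes for subunits of the same complexes went the other way. For complex I, which holds mt-Nd1, mt-Nd2, mt-Nd4 and mt-Nd5, 23 of 36 nuclear subunit genes tested rose and 1 fell from naive to 10 µM, with a median log2 difference of 1.17, beside -0.07 for all genes and 24.3% of all genes called higher. The accessory subunit gene Ndufb2 went from 16.1 ± 3.36 to 37.0 ± 3.17 units (1.17 ± 0.18, adjusted p 7.35e-05, limma). The core subunit gene Ndufv2 went from 5.65 ± 1.51 to 35.8 ± 3.005 (2.49 ± 0.27, adjusted p 1.85e-06). Ndufb4 and Ndufs8 each had 1 naive read in all and stood at 16.6 and 12.7 units at 10 µM. Genes this sparse in naive needed activated libraries to pass the filter on low values, so they could hardly come out lower. The counts of rises may include such genes. The gene that fell was Ndufa2 (-0.72, adjusted p 0.0188), a call lost under edgeR, DESeq2, quantile and total scaling.

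For complex III, the partner of mt-Cytb, 8 of 9 nuclear genes rose and none fell (median 1.58). Of all genes, 24.3% were called higher and 32.8% lower from naive to 10 µM. Uqcr10 went from 17.6 ± 7.87 to 51.5 ± 2.75 units and Uqcrq from 43.02 ± 6.70 to 80.05 ± 8.47 (1.58 ± 0.26 and 0.89 ± 0.16, adjusted p 9.54e-05 and 0.000239, limma). Uqcr11 and Uqcrc1 rose as well, from 1 and 4 naive reads, and the limit set by the filter holds for Uqcr11 too. For complex IV, the partner of mt-Co1, 8 of 11 rose and 2 fell (median 0.70). Cox5a rose from 25.9 ± 5.97 to 125 ± 6.86 units and Cox6a1 from 48.3 ± 10.1 to 116 ± 8.48 (2.25 ± 0.20 and 1.26 ± 0.16, adjusted p 1.88e-07 and 1.15e-05), followed by Cox5b (1.68) and Cox4i1 (1.87). Cox7a2l and Cox6c fell (-0.74 and -0.79), and under edgeR, DESeq2 and both total scalings none of the 11 fell.

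**Figure D5:**
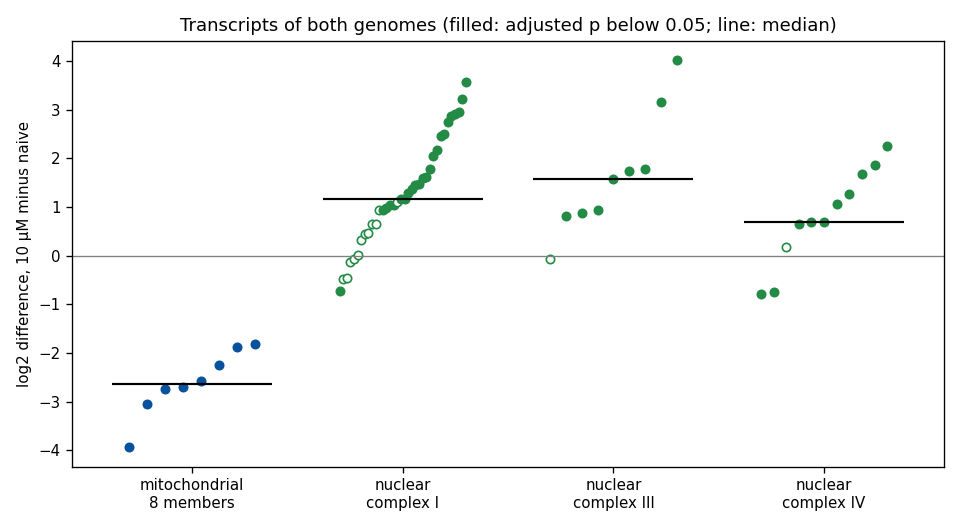
Log2 difference of 10 µM from naive (vertical axis) for the 8 mitochondrial transcripts and for nuclear genes of complexes I, III and IV, each point 1 gene. Filled points had an adjusted p below 0.05 and lines are medians: -2.64 for the mitochondrial transcripts, and 1.17, 1.58 and 0.70 for the nuclear lists.

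At 0.01 µM the nuclear lists moved alike from naive, with 21 of 36, 7 of 9 and 7 of 11 genes higher (medians 0.91, 1.2 and 0.75, beside 0.03 for all genes and 21.7% called higher). In P13.9, 18 of 36, 7 of 9 and 9 of 11 were higher than in naive, beside 29.9% of all genes. Between 10 and 0.01 µM few changed: Ndufv3 (0.97, adjusted p 0.0303), Uqcrfs1 (0.72, adjusted p 0.0452) and Cox6a1 (0.57, adjusted p 0.0433) were higher and Cox6c lower (-1.18, adjusted p 0.00995, limma), beside 1.9% of all genes called higher. These comparisons share the naive or the 0.01 µM libraries.

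Genes that act on mitochondrial RNA and DNA were measured thinly. Of 15 tested genes for processing, stability and decay of mitochondrial RNA, 6 rose and none fell from naive to 10 µM (median 1.09), beside 24.3% of all genes called higher and 32.8% lower. Slirp, which with Lrpprc keeps mitochondrial mRNAs stable, rose from 4.93 ± 1.42 to 18.9 ± 2.13 units (1.77 ± 0.31, adjusted p 0.000219, limma) on 4 naive reads, and Lrpprc from 11.7 ± 10.3 to 37.0 ± 2.74 (2.44 ± 0.78, adjusted p 0.0142) on 13. Hsd17b10, a part of the enzyme that cuts the 5′ end of tRNAs, and Tbrg4 rose by 1.303 and 1.31 log2 units. Elac2, which cuts the 3′ end, had no naive read and stood at 7.56 units at 10 µM. It passed the filter through activated libraries only, so a fall was not possible.

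Of 4 genes tested for transcription and upkeep of the mitochondrial genome, 2 fell at 10 µM, beside 32.8% of all genes called lower: Polg, the DNA polymerase (-1.80 ± 0.43, adjusted p 0.00233, limma), and Primpol, a primase (-3.23 ± 0.39, adjusted p 4.79e-06). Both rested on few naive reads, 20 and 13. Tfam, which packs mitochondrial DNA and starts its transcription, was at 21.3 ± 8.31 units in naive and 15.7 ± 1.64 at 10 µM, and Ssbp1 at 18.7 and 9.83 (-0.34 ± 0.33 and -0.68 ± 0.47, adjusted p 0.4 and 0.234). Polrmt, the mitochondrial RNA polymerase, had no naive read and 10 to 31 reads per activated group, and was not tested. Of 6 genes for biogenesis regulators, Myc (1.83, adjusted p 0.0312) and Esrra rose. Esrra had no naive read and passed the filter through activated libraries only, so a fall was not possible. Gabpb1 fell (-2.16, adjusted p 0.000708) and Gabpa missed the threshold (-0.81, adjusted p 0.0746). These counts are near the shares of all genes, 24.3% higher and 32.8% lower.

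Across the 18 libraries the nuclear genes most like the summed mitochondrial signal were Klf6 (r = 0.988), Cnot6l (0.973), Ncor1 (0.969), Rbm5 (0.968), Ddx6 (0.968) and Nfkbia (0.965), out of 1457 genes searched by Pearson correlation of log2 values. The naive libraries, which share low depth, stand apart in each of these genes: Klf6 was at 291 units in naive and 13.0 to 26.2 in the other groups. Within the 12 activated libraries the list was led by Pabpc1 (0.823) and Klf6 (0.807), then Pak2 (0.779), Ndufa6 (0.760), Rpl22 (0.759) and Tmem123 (0.736). There the summed signal went mainly with mt-Rnr2 (0.913) and mt-Rnr1 (0.628), and not with mt-Nd1 (-0.0505) or mt-Co1 (-0.265). These correlations are descriptions, since the libraries within a group share their condition.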

How the data were processed

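QuantSeq 3′ mRNA libraries of total RNA were sequenced on a NextSeq 500, per the labels' protocols. The mm10 build and DESeq2 appear in the submitters' processing notes, as do the aligner STAR (2.6.1d), the counter HTSeq (0.9.1) and FastQC (0.11.8). The authors deposited one table of median-of-ratios normalised signal for 15808 features, of which 110 unnamed ones were left out. Values were whole multiples of 1 read in 284543 of 284544 cells (99.9996%, within 0.0001 reads), which gave the read counts. Naive and P13.9 columns carry numbers and activated ones letters. The main fits did not pair libraries by letter. From the deposited signal, log2(value + 1) was fitted with limma 3.58.1 (R 4.3.3, trend) on genes at 5 or more in at least 3 libraries: 7264 genes over 15 T cell libraries, 8179 over 18 where P13.9 was compared. P-values were adjusted over all genes and called below 0.05. Shares and ratios were compared by exact permutation, or 100000 resamples for slopes. edgeR 4.0.16 and DESeq2 1.42.0 on the recovered counts, other scalings, filters, left-out libraries and subtraction of P13.9 RNA were alternatives. Fits were tested on simulated data with few genes changed. The limma test made no false call between 10 and 0.01 µM. Against the shallow naive libraries, 158 of its 305 calls were false, all among genes far below the 8 transcripts in level. With exact size factors and the same spread for all genes, the simulation could not show false calls from scaling. The transcripts named are the 8, every other mt- row, the 4 genes of smallest adjusted p per list, Tfam, Polrmt, Lrpprc and Slirp, and the 6 most correlated genes; Ndufa2, Cox7a2l, Cox6c, S100a8, S100a9 and Malat1 were named after their values were seen. Members and lists were chosen with earlier results of these data known. Gene positions come from RefSeq on GRCm38.p6, the assembly of mm10.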

Additional observations from a re-analysis of the deposited data

How the results depend on the processing

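The 8 of 8 lower calls against naive at each dose held in all alternatives run except quantile normalisation (6 at 10 and 1.0 µM, 5 at 0.1 µM, 5 at 0.01 µM) and subtraction of the 5-gene P13.9 share, with or without rescaling (7 at 10, 1.0 and 0.1 µM). The cause of none of these changes was tested.

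The counts in this section stand without the share of all genes called in the same setting, so they show no change particular to the 8. Between 10 and 0.01 µM (2 called), edgeR and DESeq2 gave 4 each, array weights 5, the subtracted P13.9 share 5 (all higher), and either subtraction with rescaling 1. Between 0.1 and 0.01 µM (2), edgeR and DESeq2 gave 3 each, array weights 4, subtraction 4, with rescaling 1, and the 206-gene share 0. Between 1.0 and 0.01 µM (1), the counts were 2 with a pseudocount of 5, without the filter, with a mean of at least 20, with quantile normalisation, with both total scalings and with all 18 libraries, 3 with edgeR, DESeq2 and array weights, 4 with subtraction, 1 with rescaling (now higher) and 0 with the 206-gene share. The slope (2) gave 3 with edgeR, 4 with DESeq2 and array weights, 5 with subtraction, 1 with rescaling and 0 with the 206-gene share. In P13.9 against naive (8), edgeR and DESeq2 gave 7. Quantile normalisation left 5 there and 2 against 0.01 µM. P13.9 against 10 µM (6) fell to 3 with edgeR (1 of them lower) and both total scalings, 4 with DESeq2, 1 with subtraction and 2 with rescaling. Leaving out 1 library gave 8 against naive, 0 to 2 for 10 and 0.1 against 0.01 µM, 0 to 1 for 1.0 against 0.01 µM, 7 to 8, 5 to 6 and 3 to 6 for P13.9 against naive, 0.01 and 10 µM, and 0 to 3 for the slope.

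The mitochondrial share turned sign with subtraction for 10, 0.1 and 1.0 against 0.01 µM (0.113, 0.131 and 0.385 points; 0.0360 for the last with 206 genes) and for the slope (0.0594). It also did so over rRNAs alone for 0.1 and 1.0 µM and P13.9 against 0.01 µM (0.00714, 0.0628 and -0.277), and over mRNAs alone for 10 against 1.0 and 0.1 µM (0.0858 and 0.176). Without 1 library it ran from -0.348 to 0.108 for 10 against 0.1 µM, -0.0689 to 0.414 for 1.0 against 0.1 µM, -0.710 to -0.328 for 10 against 0.01 µM and -0.189 to -0.0895 for the slope. The rRNA-to-mRNA slope was 0.101 with mt-Rnr1 alone. Single transcripts turned as well. In 10 µM against naive this was mt-Nd1 (0.0121, quantile). In 10 against 0.01 µM they were mt-Nd2 (-0.12, quantile) and mt-Nd5 (-0.20 quantile, -0.0067 and -0.0146 with total scalings, -0.0040 with array weights). In that comparison mt-Nd4 (3.16 subtracted, 2.80 rescaled) and mt-Cytb (1.37 and 0.68) also turned. The mt-Nd4 value of 0.01 µM library C was set to 0 in both of these subtractions.

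With the replicate letter as a replicate block over the 12 activated libraries, 2 were called in 10, 0.1 and 1.0 against 0.01 µM and in the slope. Same-letter libraries correlated at -0.197 to 0.200 in their deviations from the group means, and those of different letters at -0.251 to 0.290. With 3 libraries per group, this cannot tell whether a letter marks a shared origin. No paired analysis was possible against naive or P13.9 because their columns carry no letters. Depth limits mt-Nd6 and the tRNAs most, with 4 to 40 naive reads each among those kept.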
